A study of Mus musculus with 4 samples.

Results

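Fos, Fosb, Jun, Junb, Jund, Atf3, Egr1, Ier2, Ier3 and Zfp36 were followed across the cell classes of the mouse kidney. They are 10 of the 32285 genes that each library lists, and were chosen by symbol as AP-1 subunits and immediate early genes. The question asked of them was whether a shift between conditions was common to all cell classes, as a response to tissue dissociation might be, or differed between classes. The answer does not by itself tell the cause of a shift. Single-cell RNA-Seq was performed on 4 libraries, 1 library for each condition. All 4 libraries came from whole kidneys of male C3H mice that were 10 weeks of age at the start of the diets, were fed for 8 weeks and were harvested at 18 weeks. WT mice and SP mice received normal diet (ND) or high-fat diet (HFD, 60% of calories from fat), which gave the groups WT-ND and WT-HFD, and SP-ND and SP-HFD. SP (Sweet Pee) mice, called MT in the labels, carry a missense mutation in Slc5a2, and homozygous mutants lack functional SGLT2, the glucose transporter of the proximal tubule. The mutation is in the germline, so cells of every class carry it. In every group the tissue was digested with Liberase TM, hyaluronidase and DNase I and then with trypsin, both warm, before cells were loaded into droplets (10x 3′ chemistry). How many animals went into a library is not given in the sources used here. Since each condition rests on 1 library, nothing checks a difference against replicates, no test was made, and the condition of a library cannot be told apart from its preparation.

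AP-1 is a dimer of basic leucine zipper proteins. Fos and Fosb pair with Jun, Junb or Jund, whereas Jun proteins also pair with each other and with Atf3, and the dimers bind the TPA response element in enhancers and promoters. Immediate early genes are transcribed within minutes of a stimulus such as a growth factor, stretch, calcium or cell stress, through transcription factors that are already present (SRF with its ternary complex factors, and CREB), and their mRNAs are short-lived. Egr1 is a zinc finger transcription factor of this kind, Ier2 a nuclear protein of the same early wave, and Ier3 a small stress-response protein linked to cell survival. Zfp36 (tristetraprolin) binds AU-rich elements and speeds the decay of mRNAs, among them those of cytokines. In the kidney these genes are known for their induction in tubules after ischemia, and in dissociated tissue for their induction by warm enzymatic digestion.

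Promoter letters are shown because several members moved together within a cell class. Fos lies at chr12:85473890-85477274, Fosb at chr7:19302696-19310118, Atf3 at chr1:191170296-191183333, Zfp36 at chr7:28376784-28379228 and Ier3 at chr17:35821713-35822911 (RefSeq, GRCm38.p6). In the 250 bases before the start site (same source), 8 of the 10 members were in the promoter table. Egr1 and Ier2 were not in it. The core of the cAMP response element, TGACG, read on both strands, occurred in 4 of the 8 promoters (Atf3, Fos, Fosb and Junb) and in 17.8% of the 32851 promoters of the table. A CArG box, the letters that SRF binds, was found for Zfp36 alone among the 8, and in 1.47% of all promoters. Neither the full palindrome TGACGTCA (1.55% of all promoters) nor TGANTCA (6.75%), the AP-1 site, was found in the 8. The windows below hold 30 bases each, 5′ to 3′ on the strand of the gene, with the motif in capitals (CGTCA is TGACG on the other strand), and a match of letters is a description, not a binding site. The start site that the promoter table uses for Fosb lies inside the gene span given above, and so does its window.
Atf3, chr1:191183334-191183363, minus strand: cctggaagctattaatagcattaCGTCAgc
Fos, chr12:85473749-85473778, plus strand: ggggcgtagagtTGACGacagagcgcccgc
Fos, chr12:85473812-85473841, plus strand: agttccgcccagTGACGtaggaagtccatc
Fosb, chr7:19310088-19310117, minus strand: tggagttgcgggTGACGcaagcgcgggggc
Junb, chr8:84978837-84978866, minus strand: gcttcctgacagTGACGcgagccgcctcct
Zfp36, chr7:28379267-28379296, minus strand: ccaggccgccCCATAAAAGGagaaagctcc

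The libraries held between 90728590 and 115117649 UMIs over 13229 to 16385 barcodes, of which 6389 to 9924 cells per library were kept, 32280 in all, with a median of 3494 to 5284 UMIs per cell. Pairs of libraries shared 54 to 77 barcodes. Barcodes with 50% or more mitochondrial UMIs were 32.7% to 49.8% of a library, and were left out. Clustering, from which the 10 genes and the other listed genes were kept out, gave 35 clusters, and fixed markers named 13 cell classes that held 25129 cells. The WT-HFD library stood apart from the rest: it held 935 of the 940 cells of an unnamed cluster led by Hsd11b1, Ccl28 and Car3, and 470 of the 571 cells of another led by Sfrp2 and Des. Neither cluster is in a named class, so the class values below are without them. The best marker list of the Hsd11b1-led cluster was proximal tubule, at a mean log2 ratio of 0.42, below the 1 needed for a name. The same list was best for unnamed clusters of 574 and 81 cells. The proximal tubule class, with 1086 cells in WT-HFD, thus leaves out cells with proximal tubule markers, most of all in WT-HFD. Levels are CPM: the UMIs of a gene, summed over a class within 1 library, per 1e6 UMIs of that class and library. Ratios are log2 ratios of CPM, and "past 2-fold" means a log2 ratio of at least 1 in either direction. Intervals in parentheses are 95% intervals that cover counting error only, not differences between animals or preparations. For a median over the members, the interval joins the medians of their lower and upper bounds.

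Pooled over all cells of named classes, Fos was nearly level between the conditions, at 411 CPM on ND and 409 on HFD in WT, against 402 on ND and 417 on HFD in SP. Within classes, however, the conditions moved apart in opposite directions, as described below. Jun varied somewhat more, at 476 CPM on ND and 547 on HFD in WT, against 486 on ND and 503 on HFD in SP. Ier3, by contrast, was at 139 CPM on ND and 283 on HFD in WT, against 183 on ND and 316 on HFD in SP, so both HFD libraries lay above both ND libraries. Egr1 was highest in SP-ND, at 233 CPM on ND and 198 on HFD in WT, against 320.3 on ND and 211 on HFD in SP. These pooled levels also follow the shares of the classes in each library, and the levels within classes are used from here on.

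Cell classes differed in the members far more than conditions did. The summed level of the 10 genes had a median over the 4 libraries of 11478 CPM in neutrophils, 9795 in macrophages or dendritic cells, 9153 in thin limb, 8569 in collecting duct principal cells, 6346 in T or NK cells and 5558 in podocytes. Stromal cells (4116), endothelial cells (3958), intercalated cells (3737) and B or plasma cells (3685) followed. The thick ascending limb (1544), the distal convoluted or connecting tubule (1524) and the proximal tubule (282 CPM) were lowest. Of the 12 pairs of neighbours in this order, 10 overlapped in their ranges over the libraries, and only B or plasma cells against thick ascending limb and distal convoluted tubule against proximal tubule did not. The spread from the top to the bottom class was 10.6-fold for Jund and 431-fold for Atf3, the narrowest and the widest of the 10. From the top to the second-lowest class it was 5.45-fold for Jund and 36.8-fold for Atf3, and Ier3 was widest at 77.5-fold.

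**Figure D1:**
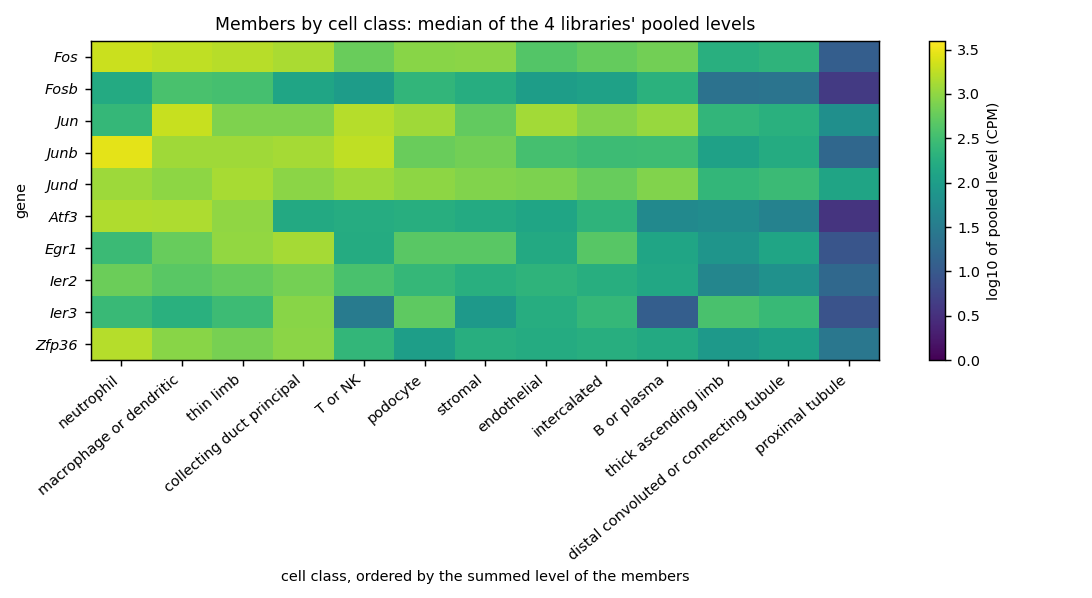
Median over the 4 libraries of the pooled level of each of the 10 genes (rows) in the 13 cell classes (columns, ordered by the summed level), as log10 of CPM. Proximal tubule is the darkest column in every row, whereas the brightest is neutrophils, macrophages or dendritic cells, collecting duct or thin limb, depending on the gene. The summed level falls from 11478 CPM in neutrophils to 282 CPM in proximal tubule.

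Among the AP-1 subunits, Fos was highest in neutrophils, macrophages or dendritic cells, thin limb and collecting duct. In the thin limb it was at 2856 CPM on ND and 1085 on HFD in WT, against 1917 on ND and 1417 on HFD in SP. In the proximal tubule it was at 11.2 CPM on ND and 12.8 on HFD in WT, against 12.8 on ND and 11.4 on HFD in SP, with no library apart from the others. The Hsd11b1-led cluster of WT-HFD is not part of this class. These levels therefore do not describe Fos in its 935 WT-HFD cells, for which no level is given here. Fosb, the closest relative of Fos, had its highest median in macrophages or dendritic cells, at 443 CPM on ND and 469 on HFD in WT, against 309 on ND and 293 on HFD in SP, with both WT libraries above both SP libraries.

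Jun, which can bind DNA without a Fos partner, was highest in the same class, at 2125 CPM on ND and 2108 on HFD in WT, against 1887 on ND and 1694 on HFD in SP. Junb peaked in neutrophils, at 2717 CPM on ND and 3019 on HFD in WT, against 2653 on ND and 3837 on HFD in SP. Jund, the subunit expressed in resting cells, varied least between classes: in the proximal tubule it was at 125 CPM on ND and 127 on HFD in WT, against 145 on ND and 125 on HFD in SP, and in the thin limb at 1702 CPM on ND and 901 on HFD in WT, against 1479 on ND and 1197 on HFD in SP. Atf3, a stress-induced partner of Jun that often represses its targets, was at 1625 CPM on ND and 1837 on HFD in WT, against 1269.9 on ND and 1296 on HFD in SP in macrophages or dendritic cells and at 2.79 CPM on ND and 6.36 on HFD in WT, against 3.09 on ND and 3.83 on HFD in SP in the proximal tubule. No library of the first class overlapped with any of the second.

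Of the 4 members outside AP-1, 3 were led by collecting duct principal cells and 1 by neutrophils. Egr1 in collecting duct was at 1612 CPM on ND and 841 on HFD in WT, against 1524 on ND and 1139 on HFD in SP. Ier3 there was at 906 CPM on ND and 942 on HFD in WT, against 784 on ND and 983 on HFD in SP, where the 4 libraries lay close together. Ier2 was at 933 CPM on ND and 521 on HFD in WT, against 650.1 on ND and 740.0 on HFD in SP, with WT-ND highest. Zfp36 in neutrophils was at 1313 CPM on ND and 1423 on HFD in WT, against 1805 on ND and 2349.9 on HFD in SP, where the SP libraries lay above the WT libraries over 41 to 63 cells each.

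The first comparison asked how the members differed between HFD and ND in WT mice. The median over 12 classes of the members' median ratio was -0.03 (-0.15 to 0.17), with 6 classes above 0 and 6 below. The shift was therefore not common to all classes: the class medians ran from -1.44 in thin limb and -1.06 in endothelial cells to 0.42 in T or NK cells and 0.57 in the distal convoluted or connecting tubule. Their SD was 0.595, against 0.0727 for the medians of all genes in the same classes, which rest on many more genes. Of the 120 pairs of a member and a class, 11 were higher past 2-fold on HFD (9.17%, against a background of 3.75% of pairs over all genes) and 17 were lower (14.2%, background 3.56%).

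In SP mice, on HFD against ND, the median over 12 classes was -0.13 (-0.37 to 0.07), with 4 classes above 0 and 8 below. Class medians ran from -1.63 in endothelial cells and -0.63 in thick ascending limb to 0.46 in neutrophils, with an SD of 0.531 (0.0536 for all genes). In this genotype 5 of 120 pairs were higher past 2-fold (background 2.46%) and 16 were lower (13.3%, background 2.69%). WT-HFD held under 50 neutrophils and SP-ND under 50 B or plasma cells, so each of these classes enters only the comparisons that do not use that library.

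**Figure D2:**
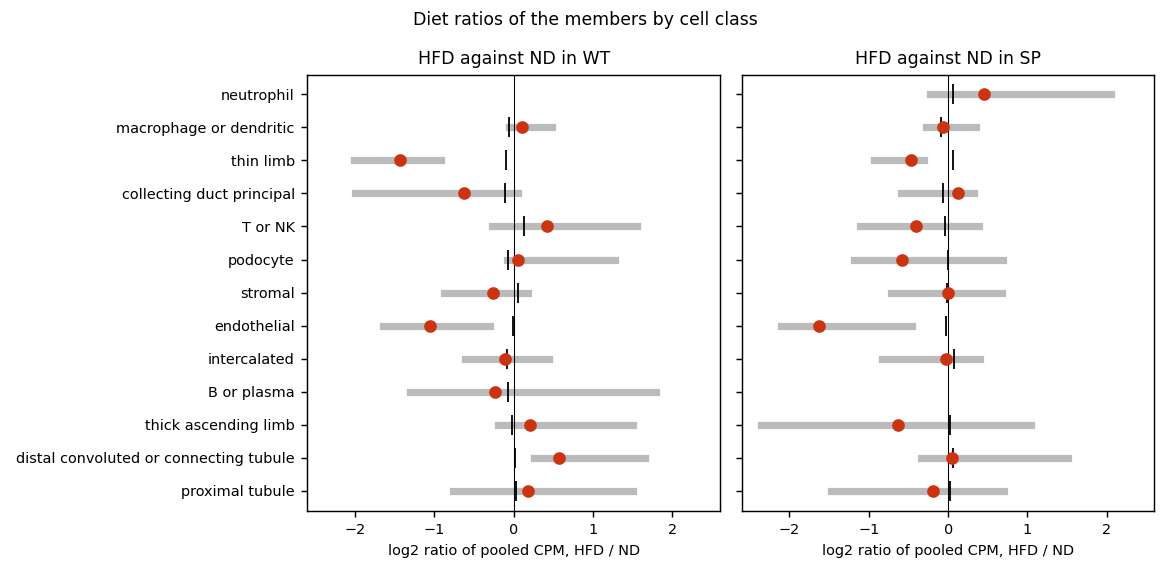
Log2 ratio of pooled CPM, HFD against ND, in WT (left) and SP (right) for each cell class with 50 cells in both libraries: the dot is the median of the 10 genes, the grey bar their range and the black tick the median of all genes in that class. The endothelial dot lies at -1.06 in WT and -1.63 in SP, whereas macrophages or dendritic cells lie at 0.11 and -0.06, close to 0 in both.

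Endothelial cells were the one class whose member median was below -1 on HFD in both genotypes. Fos was at 762 CPM on ND and 243 on HFD in WT, against 870.0 on ND and 203 on HFD in SP. Both HFD libraries lay below both ND libraries, with log2 ratios of -1.65 (-1.77 to -1.54) in WT and -2.10 (-2.21 to -1.99) in SP. Junb was at 537 CPM on ND and 224 on HFD in WT, against 671 on ND and 182 on HFD in SP, with ratios of -1.26 and -1.88. Jun, the most even of the inducible subunits here, was at 1734 CPM on ND and 888 on HFD in WT, against 1799 on ND and 892 on HFD in SP, with ratios of -0.97 and -1.01. For these 3 genes both HFD libraries lay below both ND libraries.

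All 10 members were below 0 in endothelial cells in both diet comparisons, and the intervals of all 10 excluded 0. In WT 5 of 10 were lower past 2-fold (2.70% of all genes in this class), and in SP 8 of 10 (2.08%). Jund and Ier3 had the smallest ratios, with ratios of -0.30 and -0.63 for Jund and -0.49 and -0.46 for Ier3. The class had 916, 766, 878 and 1090 cells on ND and HFD in WT and on ND and HFD in SP. Depth was higher in the HFD libraries, at a median UMI count per cell of 2042.5 on ND and 3439.5 on HFD in WT, against 2398.5 on ND and 2827.5 on HFD in SP. UMIs of proximal tubule markers, as a share of the class, were 0.801% on ND and 0.339% on HFD in WT, against 0.188% on ND and 0.224% on HFD in SP. Mitochondrial UMIs were nearly level, at 10.4% on ND and 9.44% on HFD in WT, against 10.4% on ND and 9.13% on HFD in SP. With 10% of UMIs subtracted as free RNA the members' medians were -1.17 in WT and -1.80 in SP. Over all alternatives run they lay between -1.17 and -0.84 in WT and between -1.87 and -1.07 in SP. The WT median was thus not below -1 under every alternative, and was -0.84 with doublets kept. The part of depth was not tested.

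The endothelial cells fell into 4 clusters, which were looked at separately after the values of the class had been seen. Clustering had left the members out, so their values did not define the clusters. The lower levels on HFD were deepest in 1 of them, a cluster led by Sapcd1, Ehd3 and Gata5 that held 330, 220, 142 and 284 cells (WT on ND, WT on HFD, SP on ND, SP on HFD). Ehd3, a membrane trafficking gene known from glomerular capillaries, was at 2450.5 CPM on ND and 2154 on HFD in WT, against 2352 on ND and 2603 on HFD in SP in it. Plvap, the diaphragm protein of fenestrae in peritubular capillaries, was at 10.7 CPM on ND and 15.2 on HFD in WT, against 20.1 on ND and 15.9 on HFD in SP. Both marks were thus alike between the libraries, and the cluster is called Ehd3-rich below.

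In the Ehd3-rich cluster, Fos was at 759 CPM on ND and 79.2 on HFD in WT, against 1755 on ND and 148 on HFD in SP. Both HFD libraries lay far below both ND libraries, with log2 ratios of -3.26 (-3.57 to -2.97) in WT and -3.57 (-3.79 to -3.35) in SP. Its relative Fosb was at 225 CPM on ND and 28.2 on HFD in WT, against 451 on ND and 45.4 on HFD in SP, with ratios of -3.00 and -3.31. Atf3 was at 142 CPM on ND and 16.0 on HFD in WT, against 686 on ND and 33.3 on HFD in SP, with ratios of -3.15 (-3.88 to -2.50) in WT and -4.36 (-4.84 to -3.92) in SP, the lowest of the 10 in SP. Egr1 showed the same order, at 218 CPM on ND and 22.1 on HFD in WT, against 715 on ND and 52.2 on HFD in SP, with ratios of -3.30 and -3.78. For each of these 4 genes SP-ND was the highest library and WT-HFD the lowest.

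The Jun family followed with smaller ratios. Jun was at 2020.1 CPM on ND and 677 on HFD in WT, against 3447 on ND and 819 on HFD in SP in the cluster, with ratios of -1.58 in WT and -2.07 in SP. Junb was at 544 CPM on ND and 157 on HFD in WT, against 1388 on ND and 161 on HFD in SP, with ratios of -1.79 and -3.11. For Jund the levels were 793 CPM on ND and 534 on HFD in WT, against 1559 on ND and 480.1 on HFD in SP, with ratios of -0.57 and -1.70. Jund in WT was the only one of the 20 ratios of members here that was not lower past 2-fold.

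Ier2, Ier3 and Zfp36 were also lower on HFD in the Ehd3-rich cluster. Zfp36 was at 182 CPM on ND and 60.2 on HFD in WT, against 504 on ND and 87.1 on HFD in SP, with ratios of -1.60 and -2.53. Ier3 was at 188 CPM on ND and 86.1 on HFD in WT, against 337 on ND and 81.0 on HFD in SP, with ratios of -1.12 and -2.06. Over the 10 members the median ratio was -1.69 (-2.01 to -1.52) in WT, with 9 of 10 lower past 2-fold (3.58% of all genes in the cluster), and -2.82 (-3.09 to -2.56) in SP, with 10 of 10 (3.08%). Whether the 2 genotypes differ in this cannot be tested with 1 library per condition.

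The share of cells with a UMI showed the same order. With each cell thinned to 1000 UMIs, which left out 1 to 11 cells of this cluster per library, the share of Ehd3-rich cells with a Fos UMI was 28.5% (23.6 to 33.8) on ND and 5.07% (2.56 to 8.89) on HFD in WT, against 42.6% (34.3 to 51.2) on ND and 7.14% (4.42 to 10.8) on HFD in SP (Clopper-Pearson intervals). The shares without thinning were 50.3% on ND and 18.6% on HFD in WT, against 62.7% on ND and 18.3% on HFD in SP. For Egr1 the thinned shares were 16.0% (12.1 to 20.5) on ND and 0.461% (0.0120 to 2.54) on HFD in WT, against 27.7% (20.5 to 35.8) on ND and 2.86% (1.24 to 5.55) on HFD in SP, and 32.1% on ND and 7.73% on HFD in WT, against 47.2% on ND and 8.80% on HFD in SP without thinning. In proximal tubule cells, the class with the least Fos, the thinned share ran from 0.694% (0.255 to 1.50) in SP-ND to 2.13% in WT-HFD (unthinned 9.26% on ND and 14.5% on HFD in WT, against 12.2% on ND and 10.1% on HFD in SP), with median depths of 9078 on ND and 9708 on HFD in WT, against 15139 on ND and 14515 on HFD in SP. Thinning left out 2 to 7 cells per library in proximal tubule, 3 to 10 in thin limb and 130 to 224 in thick ascending limb.

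The other endothelial clusters shifted less. A cluster led by Slc14a1 and Cytl1, with 137 to 238 cells per library, had member medians of -0.88 (-1.17 to -0.60) in WT and -1.39 (-1.64 to -1.09) in SP, with 4 and 6 of 10 lower past 2-fold (3.37% and 2.07% of all genes). Fos there was at 1012 CPM on ND and 366 on HFD in WT, against 768 on ND and 215 on HFD in SP. A cluster rich in Plvap and led by Esm1, with 287 to 491 cells per library, had medians of -0.33 (-0.58 to -0.04) and -0.34 (-0.63 to -0.05), with 0 of 10 past 2-fold in either genotype (background 4.58% and 3.31%). Fos there was at 499 CPM on ND and 379.8 on HFD in WT, against 424 on ND and 247 on HFD in SP. Among these clusters, in both genotypes the median was lowest in the Ehd3-rich cluster, then in the Slc14a1-led cluster, and nearest to 0 in the Plvap-rich cluster. The fourth endothelial cluster, with a median of 701.5 to 1694 UMIs per cell, gave too few UMIs for all 10 members to enter. Its median was -0.12 (-1.34 to 1.30) over 9 members in WT, nearer to 0 than in the Plvap-rich cluster. In SP it was -0.36 (-1.62 to 0.84) over 7 members.

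**Figure D3:**
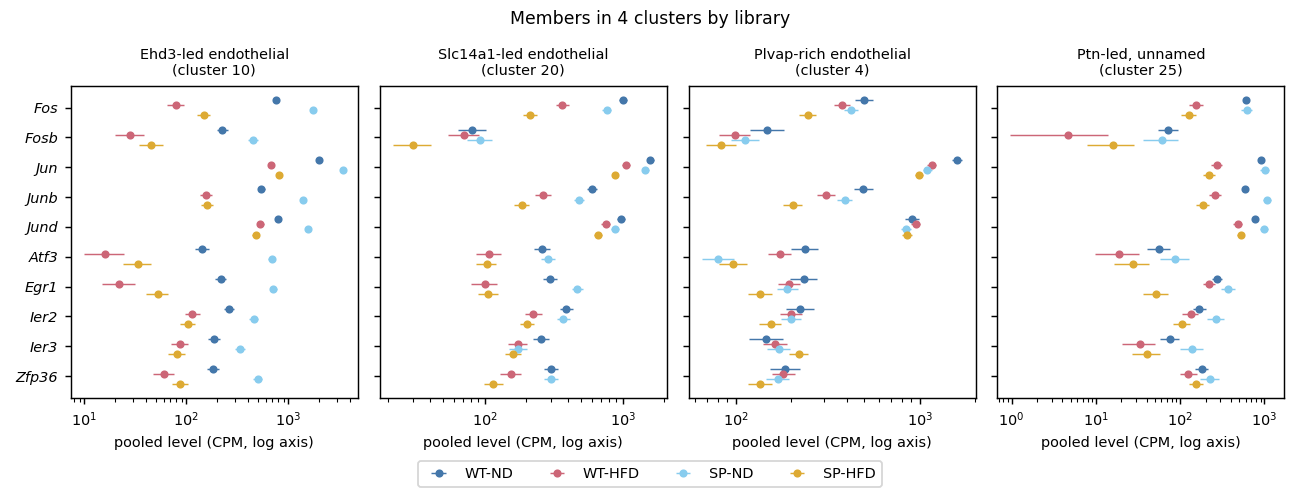
Pooled level (CPM, log axis) of the 10 genes by library in 3 endothelial clusters and in the unnamed Ptn-led cluster, with 95% Poisson intervals of counting error as bars. In the Ehd3-led panel the HFD libraries lie left of the ND libraries for every gene, for Fos at 79.2 and 148 CPM against 759 and 1755, whereas in the Plvap-rich panel no gene differs past 2-fold between HFD and ND.

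Other genes of the Ehd3-rich cluster place these values. Of the other immediate early genes that entered, 3 of 14 were lower past 2-fold in WT and 8 of 12 in SP, among them Ccn1, Ier5l and Gadd45g in both. Of the feedback inhibitors, 3 of 9 and 4 of 9 were lower, Btg2, Socs3 and Dusp5 in both. The inputs (MAP kinases, their kinases, SRF and its cofactors) were lower in 0 of 12 and 1 of 12. Klf2, a flow-induced factor of endothelium, was at 1572 CPM on ND and 1776 on HFD in WT, against 2367 on ND and 1605 on HFD in SP. Its HFD and ND libraries overlapped. Heat shock genes were lower past 2-fold in 2 of 13 in WT and 4 of 13 in SP. Hspa1a was at 1333 CPM on ND and 392 on HFD in WT, against 2137 on ND and 459.7 on HFD in SP, with both HFD libraries below both ND libraries, although reads of Hspa1a and its near copy Hspa1b may be split between them. Hspa8, the constitutive chaperone, was at 1157 CPM on ND and 1381 on HFD in WT, against 1609 on ND and 1619 on HFD in SP and was not lower on HFD. Erythroid markers made up 0.175% on ND and 0.0110% on HFD in WT, against 0.0620% on ND and 0.0570% on HFD in SP, and proximal tubule markers 0.661% on ND and 0.200% on HFD in WT, against 0.127% on ND and 0.190% on HFD in SP, so WT-ND was highest in both, and their part in the WT ratios was not tested. Mitochondrial UMIs in the cluster were 9.11% on ND and 7.77% on HFD in WT, against 8.98% on ND and 8.16% on HFD in SP, and the median depth was 2731 on ND and 4605.5 on HFD in WT, against 4041.5 on ND and 3579 on HFD in SP. Hspa1a and Hspa1b are heat-inducible, and the part of handling stress in the members' ratios was not tested.

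An unnamed cluster led by Ptn, Sfrp2 and Itga8 showed a shift in the same direction over few cells (171, 94, 56 and 133). Its best marker list was endothelial, at a mean log2 ratio of 1.66. The stromal list, which holds the mural cell gene Pdgfrb, came second at 0.04, and its markers made up 0.082% to 0.113% of UMIs by library. The cluster expressed Pdgfrb at 544 CPM on ND and 528 on HFD in WT, against 576 on ND and 651 on HFD in SP. Fos was at 606 CPM on ND and 155 on HFD in WT, against 613 on ND and 126 on HFD in SP, with ratios of -1.96 in WT and -2.28 in SP. Jun was at 904 CPM on ND and 273 on HFD in WT, against 1005 on ND and 220.5 on HFD in SP, so that both HFD libraries lay below both ND libraries for both genes. The member medians were -1.20 (-1.71 to -0.55) with 6 of 10 lower past 2-fold (7.08% of all genes), and -1.86 (-2.57 to -0.95) with 8 of 10 (3.82%). Endothelial RNA moved with them in this cluster: Kdr, the VEGF receptor of endothelium, was at 774 CPM on ND and 15.7 on HFD in WT, against 844 on ND and 105 on HFD in SP, and the 9 endothelial markers made up 0.472% on ND and 0.170% on HFD in WT, against 0.429% on ND and 0.207% on HFD in SP of its UMIs. The part of endothelial RNA in the shift was not tested.

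The direction in WT did not hold in a second unnamed cluster with Sfrp2, Ptn and Itga8 among its leading genes, the one that held 470 WT-HFD cells and 52 cells of WT-ND. Its member median was 0.48 (-0.26 to 1.37) on HFD against ND in WT, with 8 of 10 above 0, 3 higher and 1 lower past 2-fold (7.70% and 29.0% of all genes). Fos in it was at 259 CPM on ND and 327 on HFD in WT. Since both clusters share leading genes, they were also pooled, an alternative added after seeing the data. Pooled, the member median was -0.76 (-0.95 to -0.57) in WT, with 3 of 10 lower past 2-fold (21.2% of all genes) and Ier3 and Atf3 higher, and -1.64 (-2.44 to -0.84) in SP, with 8 of 10 lower (4.03%). In WT the members' share lower past 2-fold was thus not far from that of all genes.

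Podocytes, the epithelial cells of the glomerulus, had member medians of 0.05 (-0.07 to 0.19) in WT and -0.58 (-0.70 to -0.46) in SP.

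In the thin limb, HFD went with lower levels in WT and with smaller differences in SP. Atf3 was at 2052 CPM on ND and 508 on HFD in WT, against 1329.8 on ND and 744 on HFD in SP, with ratios of -2.01 (-2.14 to -1.89) in WT and -0.84 (-0.96 to -0.72) in SP. Junb was at 2134 CPM on ND and 703 on HFD in WT, against 1579.7 on ND and 947 on HFD in SP, with ratios of -1.60 and -0.74. Egr1 was at 1815 CPM on ND and 534 on HFD in WT, against 1418 on ND and 739.8 on HFD in SP, with ratios of -1.77 and -0.94. In all 3 genes WT-ND was the highest library and WT-HFD the lowest, with the SP libraries between. In WT 9 of 10 members were lower past 2-fold (4.56% of all genes in the class) and in SP 0 of 10 (2.56%), although all 10 were below 0 in both. The thinned share of thin limb cells with a Fos UMI was 64.5% (56.0 to 72.4) on ND and 34.4% (27.6 to 41.8) on HFD in WT, against 48.7% (39.3 to 58.2) on ND and 39.3% (32.3 to 46.6) on HFD in SP (unthinned 76.4% on ND and 62.6% on HFD in WT, against 65.5% on ND and 53.2% on HFD in SP). The class held 144, 190, 119 and 201 cells. Proximal tubule markers made up 0.335% of UMIs in WT-ND and 0.801% in WT-HFD, and at most 0.119% in the SP libraries. Mitochondrial UMIs were 14.6% on ND and 18.8% on HFD in WT, against 17.6% on ND and 13.5% on HFD in SP. WT-HFD was thus highest in both, and their part in the WT ratios was not tested. Hspa1b went the other way in this class, at 346 CPM on ND and 527 on HFD in WT, against 396 on ND and 615 on HFD in SP.

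Ier3 was the member most often higher on HFD, past 2-fold in 6 of 12 classes in WT and in 2 of 12 in SP. Among the 6 in WT were proximal tubule, B or plasma cells and T or NK cells, where Ier3 was low. Its medians over the libraries there were 8.22, 11.9 and 31.7 CPM. In the thick ascending limb it was at 176 CPM on ND and 498 on HFD in WT, against 280.2 on ND and 577 on HFD in SP, with ratios of 1.50 (1.40 to 1.60) in WT and 1.04 (0.97 to 1.11) in SP. In the distal convoluted or connecting tubule it was at 177 CPM on ND and 561 on HFD in WT, against 141 on ND and 402 on HFD in SP, with ratios of 1.66 (1.56 to 1.76) and 1.51 (1.40 to 1.63). Over each segment as a whole, both HFD libraries thus lay above both ND libraries. Markers of the thick ascending limb had the same order in the distal convoluted or connecting tubule, as a share of UMIs, at 0.529% on ND and 0.869% on HFD in WT, against 0.502% on ND and 0.922% on HFD in SP. Their part in the Ier3 ratios there was not tested. Podocytes showed the same order, at 272 CPM on ND and 658 on HFD in WT, against 398 on ND and 645 on HFD in SP, with ratios of 1.27 and 0.69. In intercalated cells the ratios were 0.45 and 0.40, and in collecting duct principal cells 0.06 and 0.33. The thinned share of thick ascending limb cells with an Ier3 UMI was 14.4% (12.4 to 16.6) on ND and 29.6% (26.8 to 32.4) on HFD in WT, against 18.3% (16.1 to 20.6) on ND and 33.7% (30.9 to 36.5) on HFD in SP (unthinned 34.9% on ND and 51.8% on HFD in WT, against 40.6% on ND and 55.3% on HFD in SP). In WT the rise of Ier3 was not seen in every cluster of this segment. In the cluster led by Sycn, Nccrp1 and Defb42 all 10 members, Ier3 among them, were below 0 on HFD. Their median there was -0.63 (-0.94 to -0.28), over 179 cells on ND and 202 on HFD. In the other clusters of the segment the highest ratio of any member, not always that of Ier3, was 1.06, 1.76 and 1.57. In SP the highest ratio of any member that entered was 0.67, 0.91, 0.92 and 0.71 by cluster, none past 2-fold. The pooled SP ratio of Ier3 in the segment was thus above the highest member ratio of each cluster. It was 0.73 with a 30% mitochondrial limit. The part of the cluster make-up in it was not tested.

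**Figure D4:**
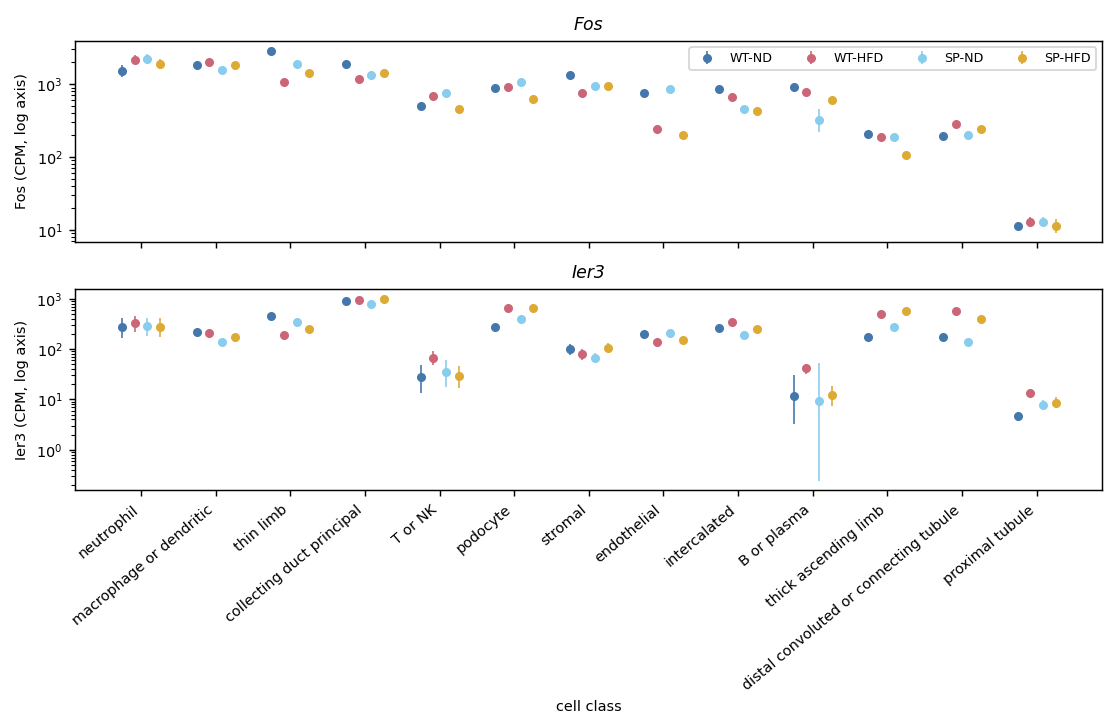
Pooled level (CPM, log axis) of Fos (top) and Ier3 (bottom) in the 13 cell classes by library, with 95% Poisson intervals of counting error as bars. In endothelial cells the HFD libraries lie lowest for Fos, at 243 and 203 CPM, and in the thick ascending limb they lie highest for Ier3, at 498 and 577 CPM.

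In the distal convoluted or connecting tubule of WT mice, all 10 members were above 0 on HFD, where the median of all genes was 0.01. Of the 10, 2 (Ier3 and Atf3) were higher past 2-fold (2.62% of all genes in the class). Atf3 was at 25.8 CPM on ND and 58.6 on HFD in WT, against 31.8 on ND and 49.3 on HFD in SP, with ratios of 1.19 in WT and 0.63 in SP. Fos was at 195 CPM on ND and 284 on HFD in WT, against 202 on ND and 246 on HFD in SP, with ratios of 0.54 and 0.29. In SP, however, the 10 members had a median of 0.05 (-0.06 to 0.25) over the class, with 5 above and 5 below 0. The clusters of the class differed in SP. In the cluster led by S100g and Slc8a1 the median was 0.39 (0.22 to 0.65), with all 10 above 0. In the cluster led by Pvalb it was -0.17 (-0.48 to 0.22), with 5 above and 5 below. In WT all 10 were above 0 in each of these clusters, with medians of 0.69 and 0.77. The orphan receptor Nr4a1, another immediate early gene, was at 16.8 CPM on ND and 142 on HFD in WT, against 20.7 on ND and 56.6 on HFD in SP in this class, with ratios of 3.08 and 1.45.

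In the thick ascending limb the SP-ND library stood apart for Egr1. Egr1 was at 75.3 CPM on ND and 74.8 on HFD in WT, against 309.6 on ND and 60.6 on HFD in SP. SP-ND was above every other library, with a ratio against WT-ND of 2.04 (1.90 to 2.18), and SP-HFD against SP-ND was -2.35 (-2.50 to -2.21). The 4 clusters of this class gave 214, 410, 285 and 246 CPM in SP-ND, so the level was not that of 1 cluster. The thinned share of cells with Egr1 was 6.71% (5.30 to 8.35) on ND and 6.97% (5.51 to 8.67) on HFD in WT, against 22.4% (20.0 to 24.9) on ND and 4.83% (3.65 to 6.26) on HFD in SP (unthinned 17.5% on ND and 19.0% on HFD in WT, against 59.3% on ND and 15.5% on HFD in SP). Fos in this class was not highest in SP-ND, at 205 CPM on ND and 188 on HFD in WT, against 190.2 on ND and 107 on HFD in SP. Depth was also highest in SP-ND, at a median UMI count of 4061 on ND and 4837.5 on HFD in WT, against 7298.5 on ND and 5571 on HFD in SP. Erythroid markers were 0.0364% of the UMIs in SP-ND and at most 0.0005% in the others. The part of depth and of erythroid RNA was not tested. Egr1 was not alone on HFD against ND in SP: Zfp36 (-1.23), Junb (-1.07) and Ier2 (-1.04) were also lower past 2-fold, which made 4 of 10 members (2.01% of all genes in the class). In SP-ND against WT-ND, Egr1 was the 1 member of 10 that was higher past 2-fold (1.41% of all genes). Below that size, Ier2 was at 0.76, Ier3 at 0.67 and Zfp36 at 0.53.

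Zfp36 had a similar profile in the proximal tubule, where the members were lowest. It was at 29.5 CPM on ND and 20.7 on HFD in WT, against 66.3 on ND and 23.9 on HFD in SP, with a ratio of 1.17 (1.02 to 1.32) for SP-ND against WT-ND and of -1.47 (-1.71 to -1.24) for SP-HFD against SP-ND. SP-ND was again the one library above the rest. For SP-ND against WT-ND, Zfp36 was the 1 member of 10 higher past 2-fold (1.73% of all genes in the class). For SP-HFD against SP-ND, 2 of 10 were lower past 2-fold (3.63%). The thinned share of cells with a Zfp36 UMI was 2.75% (2.08 to 3.56) on ND and 3.06% (2.11 to 4.27) on HFD in WT, against 5.90% (4.42 to 7.68) on ND and 2.30% (1.20 to 3.99) on HFD in SP (unthinned 23.5% on ND and 22.1% on HFD in WT, against 52.8% on ND and 23.9% on HFD in SP). The SP-ND cells were deeper than the WT-ND cells. Proximal tubule markers made up 7.32% of UMIs on ND and 6.65% on HFD in WT, against 3.77% on ND and 6.42% on HFD in SP. Mitochondrial UMIs were 33.0% on ND and 32.4% on HFD in WT, against 37.5% on ND and 32.6% on HFD in SP. The part of depth and of this make-up was not tested. Jun was at 59.7 CPM on ND and 57.7 on HFD in WT, against 97.8 on ND and 63.6 on HFD in SP, also highest in SP-ND. These low levels depended on free RNA: with 10% of UMIs subtracted as free RNA, the ratios of Zfp36 were 1.87 (1.66 to 2.08) for SP-ND against WT-ND and -3.14 (-3.63 to -2.68) for SP-HFD against SP-ND, and most of the 10 members had too few UMIs left in this class to enter.

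**Figure D5:**
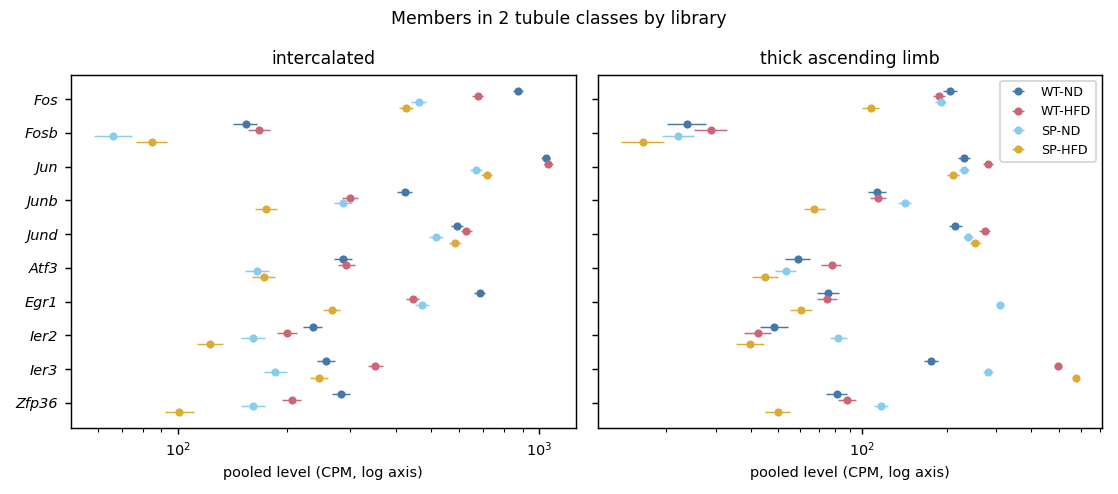
Pooled level (CPM, log axis) of the 10 genes by library in intercalated cells (left) and thick ascending limb (right), with 95% Poisson intervals of counting error as bars. In intercalated cells both SP libraries lie left of both WT libraries for Fos (463 and 427 CPM against 872 and 675), and in the thick ascending limb Egr1 in SP-ND (309.6 CPM) and Ier3 in both HFD libraries (498 and 577 CPM) stand apart.

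Over the named classes, the comparisons of SP with WT gave fewer ratios past 2-fold. On ND the median over 12 classes was 0.14 (-0.23 to 0.36), and 2 of 119 pairs were higher and 1 lower past 2-fold (background 1.85% and 2.86%). On HFD it was -0.28 (-0.46 to -0.12), and 0 of 120 pairs were higher and 7 lower (background 1.42% and 3.96%), with 3 classes above 0 and 9 below. Within endothelial cells, the Ehd3-rich cluster had a member median of 1.11 (0.97 to 1.28) for SP against WT on ND. There 6 of 10 members were higher past 2-fold (2.40% of all genes in the cluster). On HFD its median was 0.40 (0.09 to 0.68), with 2 of 10 higher past 2-fold (1.29%).

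Intercalated cells, which secrete acid or base along the collecting duct, were lower in SP than in WT on both diets. Fos was at 872 CPM on ND and 675 on HFD in WT, against 463 on ND and 427 on HFD in SP, with ratios of SP to WT of -0.91 (-0.99 to -0.83) on ND and -0.66 (-0.74 to -0.58) on HFD. Fosb was at 154 CPM on ND and 168 on HFD in WT, against 66.2 on ND and 84.5 on HFD in SP, with ratios of -1.22 and -0.99. Atf3 was at 286 CPM on ND and 292 on HFD in WT, against 165 on ND and 173 on HFD in SP, with ratios of -0.79 and -0.76. In these 3 genes both SP libraries lay below both WT libraries, whereas the WT and SP ranges of Egr1 overlapped, at 683 CPM on ND and 446 on HFD in WT, against 474 on ND and 266 on HFD in SP.

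Over the 10 members the medians of SP against WT in intercalated cells were -0.60 (-0.70 to -0.51) on ND and -0.72 (-0.85 to -0.61) on HFD. All 10 were below 0 on each diet, where 62.0% of all genes of the class were below 0 on ND and 36.5% on HFD. On HFD all 10 were also below 0 in podocytes, macrophages or dendritic cells, T or NK cells and B or plasma cells. The medians of all genes there were 0.01, -0.06, -0.08 and -0.37, in that order. In B or plasma cells the members' median of -0.43 was thus close to that of all genes. On ND all 10 were below 0 in thin limb (median of all genes -0.02), where all 10 were above 0 on HFD (median of all genes 0.15). Macrophages or dendritic cells also had medians below 0 on both diets, at -0.20 on ND and -0.35 on HFD. Both types of intercalated cell shared the direction: the cluster led by Slc26a4, the exchanger of type B cells, had medians of -0.49 and -0.36, and the cluster led by Slc4a1, the exchanger of type A cells, -0.71 and -0.90. The depth of these cells was also unequal, with a median UMI count of 7474.5 on ND and 5503 on HFD in WT, against 13088.5 on ND and 10365 on HFD in SP, so both SP libraries were deeper. At the equal depth of 1000 UMIs Fos was found in 214 of 495 intercalated cells on ND (43.2%) and 198 of 556 on HFD (35.6%) in WT, against 72 of 292 on ND (24.7%) and 99 of 412 on HFD in SP (unthinned 69.4% on ND and 66.8% on HFD in WT, against 63.6% on ND and 52.4% on HFD in SP). Both SP shares were below both WT shares at equal depth. Proximal tubule markers in the class also split by genotype, at 0.286% on ND and 0.477% on HFD in WT, against 0.0596% on ND and 0.0914% on HFD in SP. Markers of the thick ascending limb were highest in WT-HFD, at 0.154% against at most 0.0833% in the others, as were those of plasma cells, at 0.0754% against at most 0.0103%. With 10% of UMIs subtracted as free RNA the Fos ratios of SP to WT were -0.98 on ND and -0.73 on HFD. That share was the same for every library, and the part of unequal RNA from other classes was not tested.

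The shift that the classes had in common can be set beside the shift that they did not. When each class was centred on its mean of log2(CPM + 1) over the 4 libraries, the mean of the members over 11 classes was 0.13 in WT on ND (SD over classes 0.346), -0.01 in WT on HFD (0.370), 0.11 in SP on ND (0.285) and -0.23 in SP on HFD (0.211). SP-HFD was the one library with a shift of like size to its spread, and it was below the class mean in 10 of 11 classes. Jun and Egr1 were below their class means in SP-HFD in all 11 classes, with means of -0.24 for Jun and -0.41 for Egr1. In SP-ND the shift was nearly as common in the other direction for Egr1, with a mean of 0.50 (SD 0.493) and 10 of 11 classes above, and for Junb, with 0.31 (SD 0.317) and 10 of 11. Jund varied little between classes in its ratios, with an SD of its ratios of 0.388 for the WT diets and 0.237 for the SP diets.

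Genes outside the 10 with the most similar profile over the 11 classes and 4 libraries (44 points, classes centred, Pearson's r with the mean of the members, among 10930 genes) were Ppp1r15a (0.79), Btg2 (0.75), Nfkbiz (0.74), Gadd45b (0.69) and Hbegf (0.69). These points share libraries and classes, and r is given as a description. Ppp1r15a, a phosphatase subunit of the integrated stress response, had endothelial ratios of -0.75 in WT and -1.25 in SP. Among the members themselves Fos was at 0.93 and Ier3 at 0.48, the least similar of the 10.

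The lists of related genes were set beside the same background over all classes, 3.75% higher and 3.56% lower past 2-fold on HFD in WT, and 2.46% and 2.69% in SP. Feedback inhibitors had 5 higher (4.76%) and 10 lower (9.52%) of 105 pairs of gene and class in WT, and 3 (2.91%) and 11 (10.7%) of 103 in SP, so that, as for the members, more pairs were lower than higher. The other immediate early genes had 45 higher (26.8%) and 12 lower (7.14%) of 168 in WT, and 14 (8.75%) and 18 (11.2%) of 160 in SP. Of the other AP-1 family genes, 13 of 113 were higher (11.5%) and 4 lower (3.54%) in WT, and in SP 5 (4.59%) and 3 (2.75%) of 109. In WT these latter lists had more pairs higher than lower. MAPK and SRF inputs lay below the background, with 2 higher and 1 lower of 154 in WT, and 2 and 2 of 153 in SP. Of the mRNAs that Zfp36 is known to target (cytokine and chemokine genes such as Tnf and Il1b), few reached the 20 UMIs that a pair needs, with 15 higher (51.7%) and 3 lower (10.3%) of 29 in WT and 4 (14.8%) and 6 (22.2%) of 27 in SP. Heat shock genes had 8 higher (5.13%) and 2 lower (1.28%) of 156 in WT and 7 (4.70%) and 1 (0.671%) of 149 in SP, the lower ones including Hspa1b in endothelial cells, at 1144 CPM on ND and 464 on HFD in WT, against 1187 on ND and 489 on HFD in SP. In endothelial cells Hspa1b and the members were thus both lower on HFD, whereas in the thin limb of WT mice the members were lower and Hspa1b was higher. The digestion was the same for all libraries by its description, and its part in any of these differences was not tested.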

How the data were processed

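The authors aligned the reads with Cell Ranger to mm10 (version 2.1.1 per the submitters' processing notes, 6.1.2 per the file headers) and deposited raw UMI counts per gene and barcode, 1 matrix for each of the 4 libraries. Filtering and integration followed the published analysis where it is stated. Cells with 200 to 5000 genes and under 50% mitochondrial UMIs were kept, and doublets were scored against simulated doublets (50 neighbours, 30 principal components), with 0.8% per 1000 cells removed. Genes found in at least 3 cells entered integration by canonical correlation (Seurat 5.3.0, R 4.3.3; 2000 features, 50 components) and Louvain clustering at resolution 0.5, with the members and all listed genes left out of the features. A cluster took the name of the marker list with a mean log2 ratio of at least 1, with 3 or more markers detected, unless its top 10 genes spoke against it. Counts were then pooled per class and library (Python 3.11.15, numpy 2.4.6, pandas 2.3.3). A gene entered a comparison with 20 UMIs over both libraries, and a class with 50 cells in each. Intervals of a level are exact Poisson, of a ratio conditional binomial and of a share Clopper-Pearson (scipy 1.17.1). Depth per cell sets their width, and no test was made. On simulated counts for endothelial cells on HFD against ND in WT (7002 genes, 200 of them changed 2-fold), 95.6% of intervals held the true ratio.

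The members and the gene lists were chosen with earlier results of these data known. Genes outside the members were named from those lists, by their likeness to the members' mean profile (CPM of at least 20), or after their values had been seen, as were the endothelial clusters, the unnamed clusters and the genes that describe them. In all, 11 alternatives were planned and 3 were added for all comparisons after seeing the data, beside the pooling of 2 unnamed clusters. Barcodes outside the filters were not used.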

Additional observations from a re-analysis of the deposited data

Results flagged for a closer look

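In WT mice on HFD against ND, several members had ratios of opposite sign, past 2-fold, in different classes. Fosb was at a log2 ratio of 1.05 in T or NK cells and -1.50 in thin limb, Atf3 at 1.55 and -2.01, and Zfp36 at 1.01 and -1.42 in the same classes. Ier3 was at 1.80 in B or plasma cells and -1.19 in thin limb. The ratio in B or plasma cells rests on a low level, a median of 11.9 CPM over the libraries, and was 0.81 with 10% free RNA subtracted. In SP mice, Fosb was at 1.50 in neutrophils and -1.87 in endothelial cells, Jun at 1.91 and -1.01 in these classes, and Egr1 at 2.06 in neutrophils and -2.35 in thick ascending limb. The neutrophil values rest on 59 cells in SP-ND and 56 in SP-HFD.

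Other members pointed in opposite directions between the genotypes. In T or NK cells Fosb was at 1.05 in WT and -0.77 in SP. In podocytes Atf3 was at 0.74 in WT and -1.19 in SP, and Egr1 was at 0.93 in WT and -0.60 in SP. These differences between classes and between genotypes were not tested, since each condition has 1 library.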

How the results depend on the processing

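The direction of a member median held under every alternative run for 35 of 48 class medians. For single members it held for 94 of the 100 ratios checked, among them all 63 of these that were past 2-fold. The ratios checked were of HFD against ND only. They covered all members in endothelial cells, thin limb, the Ehd3-rich cluster and the Ptn-led cluster, and Ier3 in the other classes. Single ratios of SP against WT, of Egr1 in the thick ascending limb and of Zfp36 in the proximal tubule were not among them. None of the results checked turned its direction while past 2-fold. The median over classes on HFD against ND in WT was -0.17 with a 30% mitochondrial limit and -0.18 with 10% free RNA subtracted, against -0.03 as reported. In SP it was -0.38 with the 30% limit, against -0.13. Over all alternatives run it lay between -0.18 and 0.08 in WT and between -0.38 and -0.09 in SP, so its sign in WT was not stable. With 10% free RNA subtracted the proximal tubule median went from 0.35 to 1.87 for SP against WT on ND and from -0.19 to -1.14 for HFD against ND in SP. After the subtraction only Jun, Zfp36 and Jund entered the first of these, and the same genes with Ier2 the second. The medians before and after are thus over different members and cannot be set side by side. In the Ehd3-rich cluster the member median lay between -1.95 and -1.53 in WT and between -3.11 and -2.70 in SP. In intercalated cells SP against WT lay between -0.66 and -0.41 on ND and between -0.83 and -0.25 on HFD. No paired analysis was possible because each condition has 1 library, and for the same reason no library could be left out. Counting error limited the neutrophils, B or plasma cells and the low-depth endothelial cluster most.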
